A study of Mus musculus with 27 samples.

Results

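The genes described here are 9 of the 43460 gene names in the count table: Csf1, its receptor Csf1r, and 7 genes used as markers of macrophages, namely Emr1, Cd68, Mpeg1, Slc37a2, Cd84, Msr1 and Clec7a. They were chosen by name, and all 9 passed the filter on low counts. RNA was sequenced from the whole white fat of the epididymal depot of C57BL/6N mice in 27 libraries, 3 for each of 9 groups. Gain8 mice, 13 weeks old, had eaten for 8 weeks a high-fat diet in which 60% of the energy came from fat. Regain mice, 21 weeks old, were given the same high-fat diet for 4 weeks after weight loss, and gain4 mice of that age had 4 weeks of it within a treatment period of 16 weeks, whose other weeks the labels do not describe. Loss mice, 17 weeks old, had 4 weeks of normal diet after the high-fat diet, in a treatment period of 12 weeks. Maintenance mice, 21 weeks old, had 8 weeks of normal diet after the high-fat diet, in a period of 16 weeks. In both, 8 weeks of treatment came before the normal diet. In regain, 12 weeks of treatment came before the last 4 weeks of high-fat diet. The groups named control8, control12 and control16 received normal diet throughout and were 13, 17 and 21 weeks old. Initial mice were 5 weeks old, and their diet is not labelled. Whether the 3 numbered replicates of a group came from different animals is not stated in the labels, and the p-values then measure no more than the spread between libraries, which may be technical.

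Colony-stimulating factor 1, the product of Csf1, is the main growth factor of the mononuclear phagocyte lineage: it binds the receptor tyrosine kinase encoded by Csf1r, and the signal keeps macrophages alive and drives their growth and differentiation. Interleukin 34 is a second ligand of the same receptor. In obese adipose tissue, macrophages gather around dying adipocytes in crown-like structures, and their marker transcripts are commonly read as a measure of this accumulation. In whole tissue, fewer cells of a type and less RNA per cell cannot be told apart.

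Libraries held 26479773 to 32728594 counts, and levels are given as counts scaled to a common library size (CPM) by TMM, which adjusts for library composition. The adipocyte markers Adipoq, Plin1, Cidec, Lipe, Fabp4, Slc2a4 and Lpl together reached 14303 to 52047 CPM in the 27 libraries. Libraries fell into 15 with over 1000 CPM of Lars2, a gene whose mouse locus holds a ribosomal RNA-like repeat, and 12 below. Maintenance library 3 held 7221 CPM of 8 liver markers, against 17.1 and 33.9 CPM in the other maintenance libraries, and it was the lowest of its group for all 9 genes. Loss library 1 had the lowest adipocyte marker sum of all, and was the highest of its group for the 8 genes other than Csf1. The part of these features in the results was not tested.

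Of the 9 genes, 8 were higher in gain8 than in control8, against 12.0% of the 17821 names tested, and the exception was the ligand Csf1. In loss against control12 all 9 were higher, against 11.8% of names. In regain against control16 it was 8 of 9, again without Csf1, against 12.5% of names. Called here means an adjusted p under 0.05 in the quasi-likelihood test of edgeR, adjusted by Benjamini-Hochberg over all names. The median log2 fold change of the 9 genes was 2.45 in gain8, 3.05 in loss and 2.97 in regain against their same-age controls, where the median over all names was -0.02, -0.04 and -0.01. Within the libraries of low Lars2, 7 of the 9 were called in gain8 (2 libraries against 2), 0 in loss (1 against 1) and 7 in regain (1 against 1), and Csf1r was the gene lost in gain8 and regain. Within those of high Lars2 it was 0 in gain8 (1 against 1), 9 in loss (2 against 2) and 8 in regain (2 against 2). A lone library was assumed to vary like the other groups. The 9 genes and the related lists below were picked with results of these libraries known, so the counts describe the genes and do not add evidence for their direction.

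**Figure D1:**
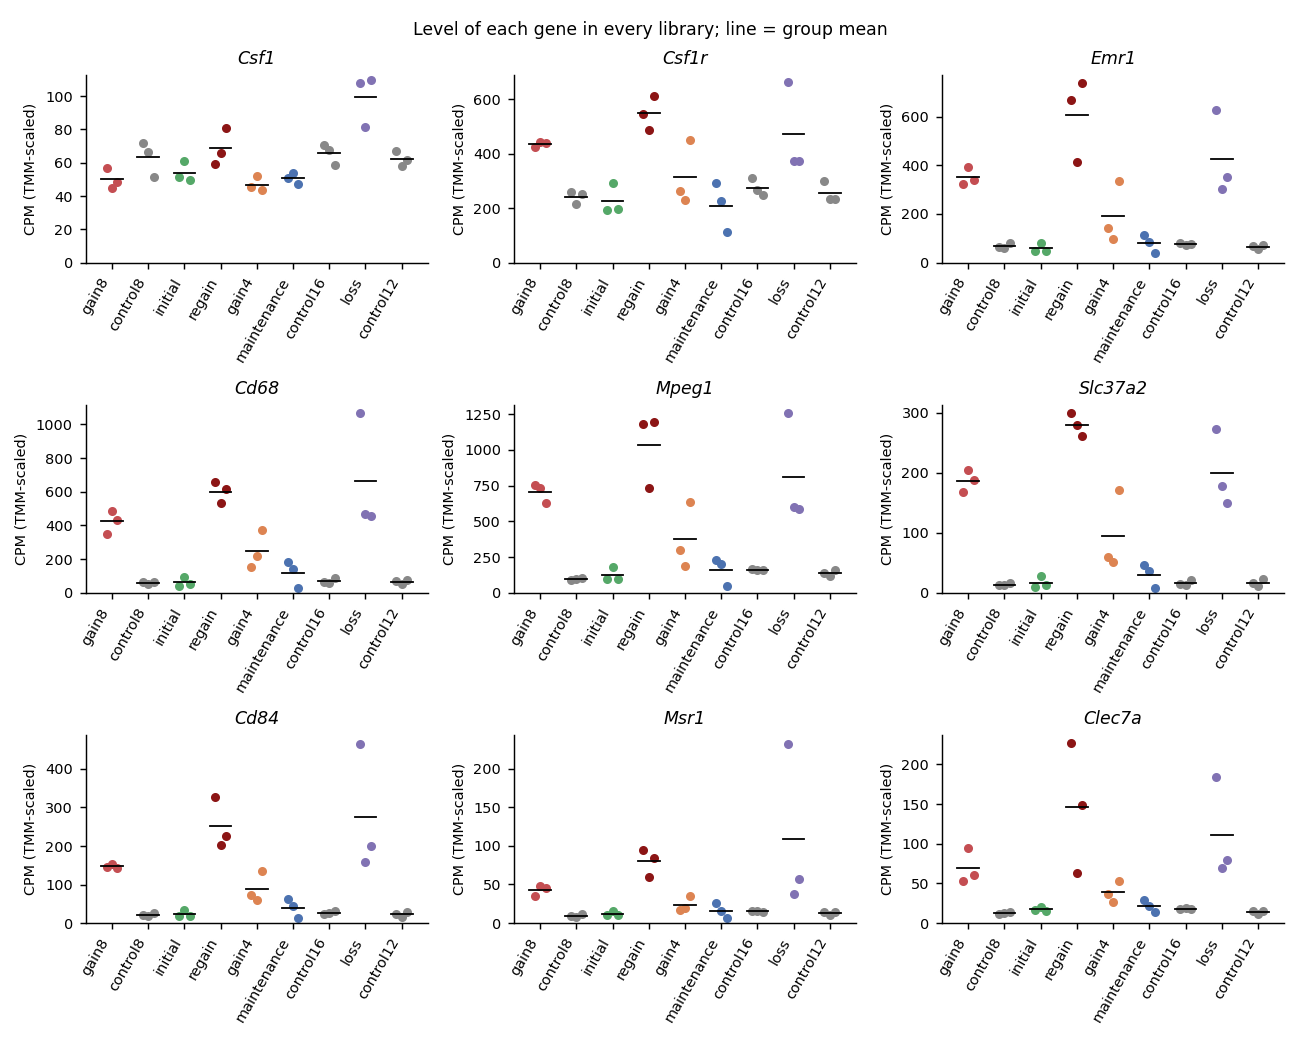
TMM-scaled CPM of the 9 genes (vertical axes, linear, from 0) in the 27 libraries, with 3 points per group and a line at the group mean. The 8 genes other than Csf1 were highest in gain8, regain and loss, whereas Csf1 was highest in loss, at 81.2 to 109.7 CPM.

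Csf1 (chr3:107741048-107760469, minus strand, GRCm38, protein coding) was higher in loss than in control12 and did not pass the test in gain8 or regain against their controls. It had 57.1, 44.7 and 48.2 CPM in gain8, against 71.8, 66.6 and 51.7 CPM in control8. It had 108, 81.2 and 109.7 CPM in loss, against 67.2, 57.9 and 61.9 CPM in control12. All 3 loss libraries lay above all 3 control12 libraries, while gain8 and control8 overlapped. The log2 fold change was 0.68 ± 0.15 (SE) in loss, a 1.60-fold higher level (edgeR adjusted p = 0.00359). It was -0.34 ± 0.15 in gain8 (edgeR adjusted p = 0.108), which did not pass the test. The call in loss was lost when only the loss and control12 libraries were fitted (0.67, edgeR adjusted p = 0.0626) and without maintenance library 3, loss library 1 and control12 library 3 (0.61, adjusted p = 0.0529). Among the libraries with high Lars2 it was 0.83 (adjusted p = 0.00383), and among those with low Lars2, 1 library against 1, it was 0.29 (adjusted p = 0.758).

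At 21 weeks of age Csf1 had 59.4, 65.7 and 81.0 CPM in regain, 45.2, 51.8 and 43.6 CPM in gain4, 51.1, 53.6 and 47.1 CPM in maintenance and 70.7, 67.9 and 58.9 CPM in control16. The gain4 and maintenance libraries all lay below the control16 libraries, and the regain libraries overlapped them. Neither difference was called: the log2 fold change was -0.49 ± 0.15 in gain4 (edgeR adjusted p = 0.0564) and -0.38 ± 0.15 in maintenance (edgeR adjusted p = 0.171). Regain stood above gain4 by 0.55 ± 0.15 (edgeR adjusted p = 0.0404), a 1.47-fold difference. That call was lost without the filter on low counts, with only the regain and gain4 libraries fitted (edgeR adjusted p = 0.206) and with the replicate number as a block (adjusted p = 0.0515). It was also lost without any 1 of the 3 gain4 libraries or of regain libraries 2 and 3. The value was 0.47 within the high-Lars2 libraries, with 1 gain4 library, and 0.42 within the low-Lars2 libraries, with 1 regain library. The initial libraries had 51.5, 61.2 and 49.7 CPM.

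The effect on Csf1 in loss exceeded that in gain8 by 1.02 ± 0.21 on the log2 scale, but the difference of differences was not called by edgeR (adjusted p = 0.282). DESeq2 called it, with a value of 1.04 (adjusted p = 0.00294), and so did edgeR without loss library 2 (1.15, adjusted p = 0.0488). Over all alternatives tried the value ran from 0.72 to 1.16, with adjusted p from 0.00294 to 0.946. Of the other 8 genes, 0 were called in this comparison by edgeR, as were 0 of all names (0%), with 1231 names and 1 of the 9 genes, Csf1, at an unadjusted p under 0.05.

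Il34, the other ligand of the receptor, had a log2 fold change of -0.31 ± 0.22 in gain8 (edgeR adjusted p = 0.309) and -0.48 ± 0.22 in loss (edgeR adjusted p = 0.115), neither of which passed the test. In regain it fell against control16, with a log2 fold change of -0.65 ± 0.22 (edgeR adjusted p = 0.0343).

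Csf1r (chr18:61100598-61132149, plus strand, protein coding) rose in gain8, loss and regain, with a smaller fold change than each of the 7 markers in all 3. Levels were 425, 444 and 440.2 CPM in gain8, against 261, 214 and 253 CPM in control8. They were 664, 374 and 375 CPM in loss, against 299, 233 and 235 CPM in control12. At 21 weeks they were 547, 486 and 612 CPM in regain, 263, 231 and 452 CPM in gain4, 291, 226 and 112 CPM in maintenance and 311, 268 and 249 CPM in control16. Groups did not overlap in any of the 3 pairs in which the gene was called. Fold changes were 1.80 in gain8 (log2 0.85 ± 0.29, edgeR adjusted p = 0.042), 1.84 in loss (log2 0.88 ± 0.29, adjusted p = 0.0369) and 1.99 in regain (log2 0.99 ± 0.29, adjusted p = 0.019). The gain8 call was lost when any 1 of the 6 libraries was left out, with total counts, without the filter on low counts and in both limma fits on FPKM, with adjusted p of 0.0567 to 0.129. The loss call was lost without the filter (edgeR adjusted p = 0.0547), with the compared groups alone (adjusted p = 0.103) and without control12 library 2 or 3. It was also lost without loss library 1 (log2 0.55, edgeR adjusted p = 0.294) and without maintenance library 3, loss library 1 and control12 library 3 (log2 0.50, adjusted p = 0.293). The regain call was lost without regain library 3 or control16 library 2 or 3. Csf1r overlaps Hmgxb3 on the opposite strand at its end, and whether reads were counted by strand is not stated. Hmgxb3 had 18132 counts in all libraries together, against 263790 for Csf1r.

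Emr1 (Adgre1, chr17:57358691-57483527, plus strand), which encodes the F4/80 surface antigen of mouse macrophages, was 324, 392 and 339 CPM in gain8, against 66.0, 62.0 and 79.6 CPM in control8. It was 628, 304 and 351 CPM in loss, against 66.7, 56.9 and 74.3 CPM in control12. It was 667, 414 and 738 CPM in regain, 142, 96.3 and 334 CPM in gain4, 112, 85.6 and 40.3 CPM in maintenance and 81.3, 72.5 and 77.6 CPM in control16. Every library of gain8, loss and regain lay above every library of its control group. The change was 5.08-fold in gain8 (log2 2.35 ± 0.40, edgeR adjusted p = 0.000485), 6.48-fold in loss (log2 2.70 ± 0.41, adjusted p = 0.000135) and 7.86-fold in regain (log2 2.97 ± 0.41, adjusted p = 5.58e-05).

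Cd68 (chr11:69664213-69666153, minus strand), which encodes a lysosomal and endosomal glycoprotein, had 351, 487 and 434 CPM in gain8, against 64.0, 50.8 and 62.9 CPM in control8. It had 1065, 469 and 454 CPM in loss, against 72.9, 54.3 and 74.5 CPM in control12. It had 659.8, 531 and 614 CPM in regain, 152, 219 and 373 CPM in gain4, 184, 139 and 29.5 CPM in maintenance and 63.4, 61.0 and 85.8 CPM in control16. Loss library 1 lay far above the other loss libraries, and maintenance spanned the widest relative range. Cd68 was 7.16-fold higher in gain8 (edgeR adjusted p = 0.000479), 9.85-fold in loss (adjusted p = 0.000125) and 8.59-fold in regain (adjusted p = 0.000153).

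Mpeg1 (chr19:12460779-12465283, plus strand), which encodes the pore-forming protein perforin-2 of phagocytes, had 753, 737 and 627 CPM in gain8, against 88.4, 99.4 and 102 CPM in control8. It had 1256, 599.7 and 586 CPM in loss, against 139, 116 and 162 CPM in control12. It had 1181, 735 and 1193 CPM in regain, 302, 188 and 639 CPM in gain4, 227, 202 and 47.3 CPM in maintenance and 166, 159.9 and 157 CPM in control16. The 3 control16 libraries lay close together, and regain library 2 was the lowest of its group. Mpeg1 was 7.31-fold higher in gain8 (edgeR adjusted p = 0.00039), 5.86-fold in loss (adjusted p = 0.000745) and 6.43-fold in regain (adjusted p = 0.000393).

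Slc37a2 (chr9:37227585-37255738, minus strand), which encodes a sugar phosphate transporter of the endoplasmic reticulum, had the largest fold change of the 9 genes in gain8, gain4, maintenance and regain. In loss its log2 fold change was 3.59 and that of Cd84 3.61, a gap smaller than either SE, and without loss library 1 the values were 3.29 for Slc37a2 and 2.99 for Cd84. It had 167, 205 and 188 CPM in gain8, against 13.2, 12.7 and 15.7 CPM in control8. It had 273, 178 and 149 CPM in loss, against 16.0, 11.0 and 22.9 CPM in control12. It had 299, 279.8 and 262 CPM in regain, 59.8, 52.1 and 172 CPM in gain4, 46.5, 35.9 and 8.26 CPM in maintenance and 14.1, 12.9 and 21.2 CPM in control16. All regain and gain4 libraries lay above all control16 libraries, and maintenance library 3 lay below them. Slc37a2 was 13.5-fold higher in gain8 (log2 3.75 ± 0.54, edgeR adjusted p = 0.000156), 12.0-fold in loss (log2 3.59 ± 0.53, adjusted p = 0.000113) and 17.4-fold in regain (log2 4.12 ± 0.55, adjusted p = 4.24e-05). Gm10177 and Gm48081 overlap it on the opposite strand. Gm10177 had 1788 counts, against 76366 for Slc37a2, and Gm48081 was not used here.

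Cd84 (chr1:171839697-171890718, plus strand) encodes a receptor of the SLAM family that binds itself on neighbouring cells. It had 145, 154 and 142 CPM in gain8, against 20.2, 18.9 and 26.9 CPM in control8. It had 466, 158 and 200.1 CPM in loss, against 22.8, 17.0 and 27.7 CPM in control12. It had 328, 203 and 226 CPM in regain, 73.1, 59.6 and 135 CPM in gain4, 61.7, 45.5 and 12.1 CPM in maintenance and 23.4, 25.9 and 30.4 CPM in control16. No library of gain8, loss, regain or gain4 fell within the range of its controls. The change was 6.68-fold in gain8 (edgeR adjusted p = 0.000485), 12.2-fold in loss (adjusted p = 5.29e-05) and 9.49-fold in regain (adjusted p = 9.61e-05). Without loss library 1 the log2 fold change of Cd84 in loss was 2.99 (edgeR adjusted p = 0.000305), against 3.61 with all libraries.

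Msr1 (chr8:39581685-39642673, minus strand), the class A scavenger receptor that takes up modified lipoproteins, had 35.0, 47.6 and 45.3 CPM in gain8, against 9.13, 8.17 and 11.2 CPM in control8. It had 232, 38.3 and 57.1 CPM in loss, against 14.0, 11.0 and 14.0 CPM in control12. It had 94.8, 60.0 and 84.4 CPM in regain, 16.4, 19.3 and 35.1 CPM in gain4, 25.7, 15.3 and 7.11 CPM in maintenance and 16.0, 15.2 and 14.1 CPM in control16. Loss library 1 lay far above the other loss libraries, while regain and control16 did not overlap. Msr1 was 4.48-fold higher in gain8 (edgeR adjusted p = 0.00409), 8.39-fold in loss (adjusted p = 0.000291) and 5.29-fold in regain (adjusted p = 0.00157). Without loss library 1 the log2 fold change in loss was 1.87 (edgeR adjusted p = 0.00272), against 3.07 with all libraries.

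Clec7a (chr6:129461591-129472779, minus strand), which encodes the β-glucan receptor Dectin-1, had 53.6, 94.2 and 60.7 CPM in gain8, against 11.4, 12.9 and 13.8 CPM in control8. It had 184, 69.5 and 79.1 CPM in loss, against 14.7, 11.0 and 14.6 CPM in control12. It had 226, 63.4 and 149 CPM in regain, 37.2, 26.7 and 52.6 CPM in gain4, 29.5, 21.1 and 14.0 CPM in maintenance and 17.1, 19.0 and 18.1 CPM in control16. Regain libraries spread the most of any group, with library 2 inside the range of gain8. Clec7a was 5.46-fold higher in gain8 (edgeR adjusted p = 0.000372), 8.26-fold in loss (adjusted p = 5.42e-05) and 8.08-fold in regain (adjusted p = 5.13e-05). The name stands in 2 rows of the count table under 2 gene IDs with identical counts and was used once. The ID at these coordinates is annotated as a polymorphic pseudogene and the other as protein coding.

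**Figure D2:**
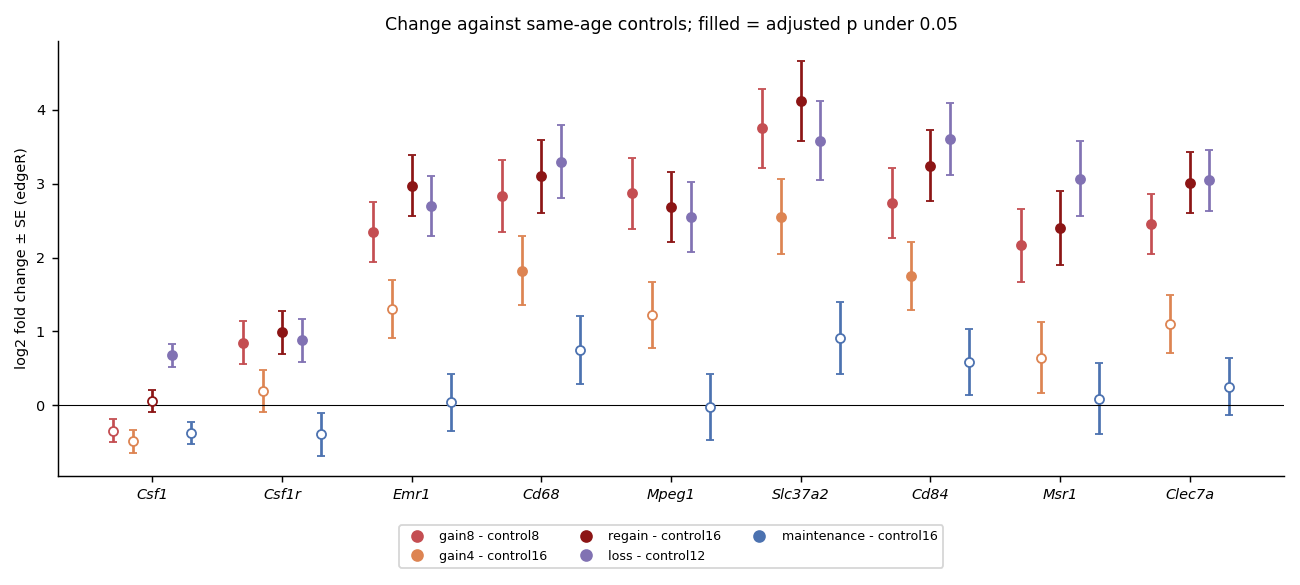
Log2 fold change with its SE (vertical axis, edgeR) of each gene in gain8, gain4, regain, loss and maintenance against same-age controls. Filled points passed an adjusted p under 0.05: the markers lie between 2.16 and 4.12 in gain8, regain and loss, Csf1r between 0.85 and 0.99, and Csf1 is filled in loss alone.

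Sequence before the transcription start was read from the RefSeq promoter table (GRCm38.p6) for 6 of the 9 genes: Cd68, Mpeg1, Slc37a2, Cd84, Clec7a and Csf1. The promoters of the other genes were not searched, and nothing is read about them. The 250 bases before the start were searched on both strands for GAGGAA, the core of many sites of the macrophage lineage factor PU.1, and for TGANTCA, the palindromic site of AP-1; no matches of the 2 motifs overlapped. GAGGAA was found in Cd68, Slc37a2 and Clec7a, and in 23.3% of the 32851 promoters searched. TGANTCA was found in Cd68, Slc37a2 and Cd84, and in 6.75% of promoters. Neither was found in Mpeg1 or Csf1. Cd68 and Slc37a2 are shown because they hold both motifs and were among the genes that changed most, and Csf1 because it was called in loss alone of these 3 comparisons. The windows are chr11:69666171-69666420, chr9:37255739-37255988 and chr3:107760470-107760719, all on the minus strand, written 5′ to 3′ with motif matches in capitals.
Cd68: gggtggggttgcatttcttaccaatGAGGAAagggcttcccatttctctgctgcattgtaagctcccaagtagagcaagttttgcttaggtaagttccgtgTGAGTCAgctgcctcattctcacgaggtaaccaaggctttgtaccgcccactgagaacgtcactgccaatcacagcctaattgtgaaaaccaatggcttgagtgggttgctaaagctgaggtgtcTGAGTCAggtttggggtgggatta
Slc37a2: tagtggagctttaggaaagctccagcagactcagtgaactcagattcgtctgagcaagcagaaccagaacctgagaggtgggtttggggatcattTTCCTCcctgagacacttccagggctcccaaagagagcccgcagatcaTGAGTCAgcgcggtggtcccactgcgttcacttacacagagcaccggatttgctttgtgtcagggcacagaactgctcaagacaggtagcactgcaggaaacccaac
Csf1: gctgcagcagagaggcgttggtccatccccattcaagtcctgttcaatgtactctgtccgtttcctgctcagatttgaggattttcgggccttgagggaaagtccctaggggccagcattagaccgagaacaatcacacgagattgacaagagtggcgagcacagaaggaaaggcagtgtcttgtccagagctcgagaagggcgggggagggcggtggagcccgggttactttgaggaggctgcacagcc
In Cd68 the GAGGAA match began 225 bases before the start and the TGANTCA matches 149 and 24 bases before it. In Slc37a2 the first motif was on the reverse strand and began 155 bases before the start, and the second began 107 bases before it. A match is a run of letters and not a measured binding site.

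Relative to Emr1, the other genes did not all change by the same amount. For Csf1r the difference in log2 CPM from Emr1 was 0.39, 0.18 and 0.38 in gain8, against 1.98, 1.78 and 1.66 in control8. In loss it was 0.08, 0.30 and 0.10, against 2.16, 2.03 and 1.66 in control12. In regain it was -0.29, 0.23 and -0.27, against 1.94, 1.88 and 1.68 in control16. In all 3 pairs the groups did not overlap, and the mean shift was -1.74. For Csf1 the mean shift was -2.51, also without overlap in any of the 3 pairs. For Slc37a2 it was 1.20, with all libraries of gain8, loss and regain above those of their controls. Relative to Cd68 in place of Emr1 the shift was -2.15 for Csf1r, -2.92 for Csf1 and 0.79 for Slc37a2. For Slc37a2 against Cd68 the groups were apart in 2 of the 3 pairs. Loss and control12 overlapped, with a shift of 0.40. Shifts for the remaining genes against Emr1 were 0.51 for Cd84, 0.41 for Cd68, 0.08 for Clec7a, 0.02 for Mpeg1 and -0.25 for Msr1. These shifts are descriptions with no test.

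**Figure D3:**
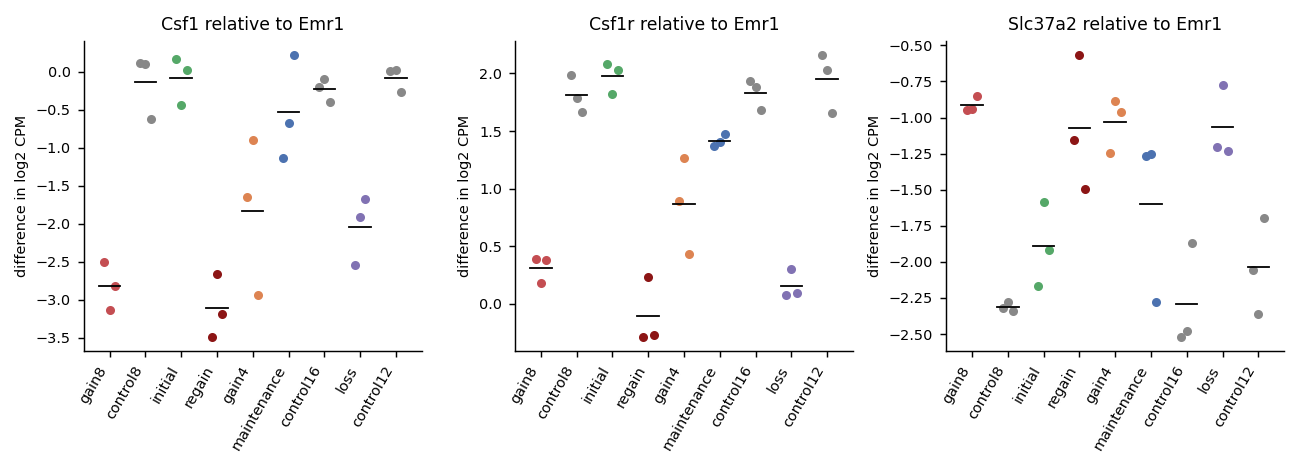
Difference in log2 CPM between each of Csf1, Csf1r and Slc37a2 and Emr1 (vertical axes) in the 27 libraries, with a line at the group mean. For Csf1r the 3 gain8 libraries lie between 0.18 and 0.39 and the 3 control8 libraries between 1.66 and 1.99.

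Over all 27 libraries, each gene's centred log2 CPM was compared with the mean of the other genes, with Csf1 left out of that mean. The mean absolute difference was 0.17 for Emr1, 0.18 for Mpeg1, 0.25 for Clec7a, 0.27 for Cd84, 0.27 for Cd68 and 0.29 for Msr1. It reached 0.59 for Slc37a2, 0.83 for Csf1r and 1.11 for Csf1. Of the tested names outside the 9, the profiles nearest to the mean of the 8 genes other than Csf1 were C3ar1 at 0.12, Nckap1l at 0.14, Lpxn at 0.15, Apobec1 at 0.17, Igsf6 at 0.17 and Arl11 at 0.17. All 6 were called higher in gain8, against 12.0% of names, and in loss, against 11.8%. Log2 fold changes were 2.25 to 2.72 in gain8 and 2.41 to 3.04 in loss. Having been picked by profile over these same libraries, the 6 were bound to change much like the 8 genes, and their calls add no evidence. Nearest to Csf1 were Bahd1 at 0.16, Agfg1 at 0.16, Flii at 0.17, Osmr at 0.17, Zc3hav1 at 0.17 and Dnal4 at 0.18. Of these, 0 were called in gain8, and 1, Zc3hav1, in loss (0.52 ± 0.18, edgeR adjusted p = 0.0463). They were picked in the same way, and nothing is read from these counts. Over the 9 group means, 4 of the 6 genes nearest to the 8 markers were shared with the first list, and 0 of the 6 nearest to Csf1.

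Levels between genes can be set side by side only per length, in the authors' FPKM, where Clec7a is left out for the reason given among the further observations. In gain8 the order of mean FPKM was Cd68 (344 ± 63.8, SD), Mpeg1 (166 ± 18.1), Emr1 (111 ± 14.5), Csf1r (91.0 ± 4.22), Slc37a2 (37.5 ± 4.68), Cd84 (23.9 ± 1.68), Msr1 (10.9 ± 1.93) and Csf1 (9.66 ± 1.05), and of neighbours in this order Msr1 and Csf1 overlapped. In control8 it was Csf1r (52.9 ± 4.63), Cd68 (50.2 ± 5.27), Mpeg1 (23.8 ± 1.76), Emr1 (22.7 ± 2.41), Csf1 (12.9 ± 2.34), Cd84 (3.73 ± 0.629), Slc37a2 (2.91 ± 0.257) and Msr1 (2.53 ± 0.349). In control8 Csf1r and Cd68 overlapped, as did Mpeg1 and Emr1, and Slc37a2 and Msr1. In gain8, loss and regain the receptor came after Cd68, Mpeg1 and Emr1, though in loss its range overlapped that of Emr1. In control12 the order began with Cd68 (53.8 ± 12.4) and Csf1r (52.0 ± 5.62), and in control16 with Csf1r (57.1 ± 6.26) and Cd68 (56.2 ± 9.60). These 2 genes overlapped in both groups.

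After 4 weeks of high-fat diet (gain4 against control16), 3 of the 9 genes were called higher, against 3.80% of names: Slc37a2 (2.55 ± 0.51, edgeR adjusted p = 0.013), Cd68 (1.82 ± 0.47, adjusted p = 0.0304) and Cd84 (1.75 ± 0.45, adjusted p = 0.031). Emr1 had 1.31 ± 0.39 (adjusted p = 0.0508), and Csf1r 0.19 ± 0.29 (adjusted p = 0.716). Gain4 library 3 was the highest of its group for the 8 genes other than Csf1. Without it the Slc37a2 call alone remained, at 1.80 (edgeR adjusted p = 0.0359), without control16 library 1 or 2 there were 0 calls, and with DESeq2 there were 7.

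In regain against gain4, which sets high-fat diet after weight loss against the same 4 weeks of it labelled without an earlier course, 4 of the 9 genes were called higher, against 4.12% of names. They were Clec7a (1.91 ± 0.39, edgeR adjusted p = 0.0279), Emr1 (1.67 ± 0.39, adjusted p = 0.0299), Csf1 (0.55 ± 0.15, adjusted p = 0.0404) and Msr1 (1.76 ± 0.48, adjusted p = 0.0408). The other 5 had log2 fold changes of 0.80 to 1.57 and adjusted p of 0.0527 to 0.097. The count was 0 without gain4 library 1, gain4 library 2 or regain library 3, 8 without gain4 library 3, where Emr1 had 2.35, and 2 with the replicate number as a block, where Csf1 and Msr1 were lost. Within the high-Lars2 libraries gain4 was held by library 2 alone, and the log2 fold change of Emr1 was 2.55. Within the low-Lars2 libraries regain was held by library 1 alone, and it was 1.49.

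After 8 weeks of normal diet no marker passed the test. In maintenance against control16, 0 of the 9 genes were called by edgeR, as were 0% of names, with 1 gene, Csf1, and 3633 names at an unadjusted p under 0.05; DESeq2 and limma on FPKM called 0 of the 9. Log2 fold changes ran from -0.39 for Csf1r to 0.91 for Slc37a2. Maintenance libraries 1 and 2 lay above all control16 libraries for Emr1, Cd68, Mpeg1, Slc37a2, Cd84 and Clec7a, and library 3 below all of them. Without library 3 the values were 1.40 for Slc37a2 (edgeR adjusted p = 0.257) and 1.25 for Cd68 (adjusted p = 0.257). The comparisons of gain4, maintenance and regain share the control16 libraries.

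All 9 genes were lower in maintenance than in loss, against 12.9% of names. Mice in the 2 groups also differed in age. Log2 fold changes were -2.78 for Cd84, -2.76 for Msr1, -2.72 for Slc37a2, -1.17 for Csf1r and -0.98 for Csf1, with adjusted p of 0.00021 to 0.00683 over the 9 (edgeR). Without maintenance library 3, loss library 1 and control12 library 3 the values were -1.74 for Cd84, -1.22 for Msr1 and -1.99 for Slc37a2, and the Csf1r call was lost (-0.53, edgeR adjusted p = 0.183). Fitted on those 2 groups alone, edgeR called 0 of all names. In regain against maintenance all 9 were higher, against 13.9% of names, with log2 fold changes from 0.44 for Csf1 to 3.21 for Slc37a2. The Csf1 call there (edgeR adjusted p = 0.0353) was lost without any 1 of regain libraries 2 and 3 and of the 3 maintenance libraries, without the filter, with the 2 groups alone, within the low-Lars2 libraries and without the 3 libraries named above.

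Set against same-age controls in each case, the effect in maintenance was below that in loss for 8 of the 9 genes, against 5.66% of names. The differences were -3.02 ± 0.64 for Cd84 (edgeR adjusted p = 0.00704), -2.65 ± 0.55 for Emr1 (adjusted p = 0.00658) and -1.06 ± 0.21 for Csf1 (adjusted p = 0.00586). Csf1r had -1.28 ± 0.41 (adjusted p = 0.0549). Without loss library 1 the count was 4, without maintenance library 3, loss library 1 and control12 library 3 it was 1, Cd84 at -2.15 (edgeR adjusted p = 0.0239), and with only the 4 groups fitted it was 0.

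In control8 against initial, which covers ages of 13 and 5 weeks, 0 of the 9 genes were called by edgeR, against 0.724% of names, and 0 were at an unadjusted p under 0.05. DESeq2 also called 0 of the 9. Emr1 had 66.0, 62.0 and 79.6 CPM in control8, against 46.0, 82.5 and 48.7 CPM in initial. Cd68 had 64.0, 50.8 and 62.9 CPM in control8, against 41.8, 93.9 and 50.5 CPM in initial. For these genes initial library 2 was the highest of its group, and the 2 groups overlapped.

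Most listed genes of the CSF1 receptor pathway and of the macrophage lineage rose in gain8 and loss. Of 19 tested, 14 were higher in gain8 and 14 in loss, with 0 lower in either, against 12.0% of names higher in gain8 and 11.8% in loss. The median log2 fold change of the list was 1.27 in gain8 and 1.30 in loss. Spi1, which encodes the lineage factor PU.1, had 2.18 ± 0.33 in gain8 (edgeR adjusted p = 0.000213) and 2.86 ± 0.34 in loss (adjusted p = 3.07e-05). Irf8, a factor of monocyte and macrophage development, had 1.83 ± 0.29 in gain8 (adjusted p = 0.000304) and 1.30 ± 0.29 in loss (adjusted p = 0.00309). Dok2, an adaptor of receptor tyrosine kinases, had 1.27 ± 0.24 in gain8 and 2.48 ± 0.25 in loss (adjusted p = 1.56e-05), and Ptpn6, the phosphatase SHP-1, had 1.81 ± 0.34 in gain8 and 2.45 ± 0.34 in loss (adjusted p = 6.82e-05).

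Of the other colony-stimulating factors and receptors, 8 were tested, since Csf2 and Csf3 did not pass the filter, and their median log2 fold change was 0.87 in gain8 and 0.71 in loss. In gain8 3 of the 8 were higher, against 12.0% of names: Csf2ra (1.72 ± 0.32, edgeR adjusted p = 0.000774), Csf2rb2 (1.35 ± 0.31, adjusted p = 0.00409) and Csf3r (1.40 ± 0.38, adjusted p = 0.0117), which encode chains of the GM-CSF, interleukin 3 and G-CSF receptors. In loss 2 of the 8 were higher, against 11.8% of names, Csf2ra (2.21 ± 0.32) and Csf2rb2 (1.82 ± 0.31). Csf2rb, the shared chain, had 0.90 ± 0.34 in gain8 (adjusted p = 0.0601) and 0.80 ± 0.34 in loss (adjusted p = 0.0937).

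Of 16 further macrophage and myeloid markers, 13 were higher in gain8, against 12.0% of names, and 12 in loss, against 11.8% of names, with 0 lower and medians of 1.69 and 2.14. The inhibitory receptor gene Lair1 had 2.69 ± 0.45 in gain8 (edgeR adjusted p = 0.000403) and 3.32 ± 0.46 in loss (adjusted p = 6.14e-05), and Ctss, which encodes cathepsin S, had 2.72 ± 0.49 and 3.42 ± 0.51. Of 14 genes of the Dectin-1 pathway and its related lectins, 10 were higher in gain8 and 13 in loss, beside the same shares of names, with 0 lower and medians of 1.42 and 2.02. Clec12a, an inhibitory lectin receptor, had 2.68 ± 0.42 in gain8 and 2.97 ± 0.42 in loss (adjusted p = 8.19e-05), and Fcer1g, the adaptor of several of these receptors, had 1.91 ± 0.37 and 2.36 ± 0.38. Of 10 genes of the SLAM family and its adaptors, 6 were higher in gain8 and 7 in loss, again beside those shares, with 0 lower and medians of 1.71 and 1.79. Among them were the receptor genes Slamf8 (2.44 ± 0.46 in gain8 and 3.26 ± 0.47 in loss) and Ly9 (2.63 ± 0.50 and 3.67 ± 0.52).

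Of the other scavenger receptors 3 of 11 were called in gain8 and 1 in loss, and the median over the 11 was 0.28 in gain8 and 0.26 in loss. Of all names, 12.0% were higher and 9.52% lower in gain8, and 11.8% higher and 8.24% lower in loss, and nothing about the list is read from its counts. In gain8 2 were higher, Olr1, a receptor of oxidised lipoprotein (2.91 ± 0.77, edgeR adjusted p = 0.0104), and Cxcl16, a membrane-bound chemokine with the same ligand (1.12 ± 0.35, adjusted p = 0.0253). Scara5, a ferritin receptor, was lower there (-1.28 ± 0.31, adjusted p = 0.00586). In loss 0 were higher and 1 was lower, Cd163, the haptoglobin-haemoglobin receptor of resident macrophages, at -2.53 ± 0.49 (adjusted p = 0.00107). Cd163 was also lower in regain against control16, at -2.39 ± 0.48 (adjusted p = 0.00129). Of 8 genes of the SLC37 family and of glucose 6-phosphate handling, 2 were higher in gain8 and 1 in loss, beside the same shares of names, and nothing is read from these counts. Hk3, which encodes hexokinase 3 of myeloid cells, was higher in gain8 (2.89 ± 0.47, adjusted p = 0.000351) and loss (4.44 ± 0.51, adjusted p = 2.65e-05), and G6pdx, the first enzyme of the pentose phosphate pathway, was higher in gain8 (1.0 ± 0.33, adjusted p = 0.0363). The other members of the Slc37 family, Slc37a1, Slc37a3 and Slc37a4, were called in neither comparison.

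**Figure D4:**
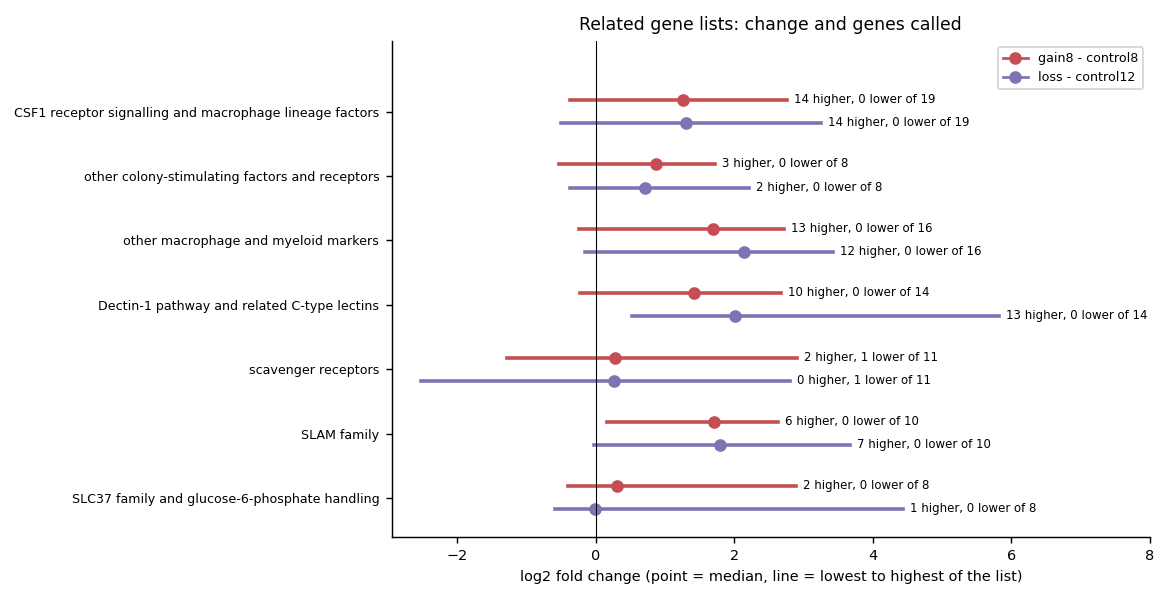
Log2 fold change (horizontal axis) of 7 related gene lists in gain8 against control8 and loss against control12, with a point at the median, a line from the lowest to the highest gene, and the number called beside it. Medians lie above 1 for the receptor pathway, the myeloid markers, the Dectin-1 pathway and the SLAM family in both comparisons, and near 0 for the scavenger receptors and the SLC37 list.

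Markers of other cell types moved with some of these results. Of all names, 11.8% were higher and 8.24% lower in loss. The 7 adipocyte markers summed to 14303, 36229 and 22720.2 CPM in loss, against 50783, 43651 and 25048 CPM in control12, where 1 was called lower. Of 5 mast cell markers 3 were called higher in loss, with 305, 68.0 and 22.9 CPM in loss and 18.7, 14.3 and 49.9 CPM in control12. All 5 red cell markers were lower in loss, at 176, 561 and 516 CPM, against 1321, 2091 and 1124 CPM in control12. None of these markers was at 0 throughout a group named so far.

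In gain8 against control8, 5 of the 6 tested of 8 markers of efferent duct and epididymis were lower, at 0.249, 0.102 and 0.283 CPM in gain8, against 5.24, 146 and 25.0 CPM in control8. In gain8 Crisp1, Lcn5 and Defb22 were at 0. In loss 5 of the 6 were likewise lower, at 0.314, 0.202 and 0.331 CPM, against 4.14, 0.191 and 254 CPM in control12, with Lcn5 and Defb22 at 0 in loss. Of 5 B cell markers 3 were lower in gain8, at 5.19, 11.7 and 5.76 CPM, against 17.6, 6.97 and 35.9 CPM in control8, and 2 were lower in loss. In each of these sums the control groups spread widely between libraries. Of all names, 9.52% were lower in gain8 and 8.24% in loss. In maintenance against loss, 7 of 8 liver markers, 5 of 6 sperm and testis markers and all 5 red cell markers were higher. Of the 17821 names, 2069 were higher there. The sperm and testis markers reached 15.4, 19.9 and 50.8 CPM in maintenance, against 0.419, 0.0336 and 0.0331 CPM in loss, and the red cell markers 4116, 1412 and 1508 CPM in maintenance. In regain against maintenance all 8 liver markers and 4 of 7 adipocyte markers were lower, against 2317 of the 17821 names. The adipocyte sums were 30963, 24804 and 20994 CPM in regain, against 44866, 41947 and 37472 CPM in maintenance. The liver markers summed to 20.2, 8.20 and 24.0 CPM in loss, and maintenance library 3 held nearly all of their sum in maintenance. The part of all these markers in the results was not tested.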

How the data were processed

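Libraries came from whole tissue with a TruSeq kit, per the labels' protocols. The submitters' processing notes list the tools Trimmomatic 0.33, TopHat2 2.0.13 and HTSeq 0.6.0 and the build mm10 (GRCm38). The authors deposited unscaled read counts, in 43616 rows, of which 156 repeat a name with identical counts and were used once. The deposited FPKM cover 22194 rows. Of the values compared, 99.7% matched, within 1%, the count divided by the deposited exonic length and the library's total over protein-coding names.

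Counts were filtered with filterByExpr (minimum count 10, minimum total 15), which left 17821 names, scaled by TMM and fitted in one model of 9 group means with edgeR 4.0.16 in R 4.3.3. The quasi-likelihood test was adjusted by Benjamini-Hochberg over all names in each comparison, and the SE comes from the fold change and its statistic. The fit was tested on simulated counts. Profiles and ratios used log2 CPM with a prior count of 2. Alternatives used DESeq2 1.42.0 and limma 3.58.1 (on log2 of FPKM with a pseudocount of 1 or 0.1), RLE scaling, no scaling, no filter, the compared groups alone, the replicate block, Lars2 sets split at 1000 CPM, and left-out libraries.

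The 9 genes, the lists, the tests and the motifs were chosen with earlier results of these data known. Text names the 9 genes, 6 preset relatives, up to 4 called genes of each list with the smallest adjusted p in gain8 and in loss, up to 2 in other comparisons, and the 6 nearest profiles; the Slc37a and marker genes named beside list counts were added. Replicates differed by more than sampling noise (chi-square per degree of freedom 11.9 to 534). Like-numbered libraries deviated together at correlations of -0.18 to 0.38. Every pair passed 0.1 in 0 of 9 comparisons, and the numbers were not used as pairs. This limit does not show that the libraries were unpaired. Positions come from GENCODE M21 by deposited gene ID, and promoters from RefSeq. The sources used here give neither the strand setting nor the annotation of the counting. Some listed genes and 1 marker list are not reported here.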

Additional observations from a re-analysis of the deposited data

Results flagged for a closer look

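In 8 of the 9 genes the effect against same-age controls was lower in maintenance than in loss, against 5.66% of names. The test was edgeR's quasi-likelihood test of the difference itself. The log2 difference, maintenance effect minus loss effect, was -3.02 for Cd84, -2.98 for Msr1, -2.79 for Clec7a, -2.68 for Slc37a2, -2.65 for Emr1, -2.57 for Mpeg1, -2.55 for Cd68 and -1.06 for Csf1. Without loss library 1 the number of genes called was 4, and without maintenance library 3, loss library 1 and control12 library 3 it was 1. All these calls were lost when only the compared groups were fitted. No formal outlier test was made in groups of 3 libraries.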

How the results depend on the processing

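The 7 markers kept their direction in gain8, loss and regain under every alternative run, and leaving out 1 library ended none of these calls. They were lost in the Lars2 sets of 1 library against 1 in gain8 and loss, for Msr1 in loss with the compared groups alone, and for Clec7a in the limma fits. Calls in gain4 and in regain against gain4 depended on single libraries. Where a value below moved or reversed, the cause was not tested. With 3 libraries per group, the spread between libraries limits the precision more than depth does.

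The replicate block moved the names called in regain against gain4 to 606, against 978, and the 9 genes called to 2, against 4; it changed the count of the 9 genes in no other comparison. In regain against gain4, like-numbered libraries deviated at correlations of 0.31, 0.21 and 0.04 for replicates 1, 2 and 3. Whether the numbers pair libraries is not labelled, and the main fit does not use them as pairs.

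With DESeq2 the names called were 2105 in gain4 against control16 (main 1037), 830 in maintenance against control16 (main 0), 2120 in regain against gain4, 679 in control8 against initial (main 129) and 32 in the difference of loss and gain8 effects (main 0), and the 9 genes called were 7 in gain4, 8 in regain against gain4 and 1 in that difference. With RLE scaling and with total counts, maintenance against control16 gave 149 and 1 names. Without the filter it gave 217, gain4 against control16 gave 641, regain against gain4 239 (2 of the 9 genes) and control8 against initial 78. Fitted on the compared groups alone, the names were 5976 in gain8 (main 3833), 0 in gain4, 768 in loss (main 3564), 0 in regain against gain4, 1444 in regain against maintenance (main 4790), 0 in maintenance against loss (main 4368), 1930 in control8 against initial and 1 in the difference of maintenance and loss effects (main 1599), with 0 of the 9 genes in gain4, regain against gain4, maintenance against loss and that difference. The limma fits on FPKM gave 1 of the 9 genes in gain4 at both pseudocounts, 1 name in maintenance against control16 at both, and 4 and 1 names in the difference of loss and gain8 effects.

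With Lars2 as a term 7 of the 9 genes were called in regain against gain4, and 83 names in control8 against initial. In the high-Lars2 set, maintenance was held by library 3 alone, the library with 7221 CPM of liver markers. Gain8, control8 and gain4 also had 1 library each in that set, as did loss, control12, regain and control16 in the low-Lars2 set. Counts of names in comparisons with such a group rest on that single library. In the high-Lars2 libraries the names were 0 in gain8, 5341 in gain4, 6182 in loss, 5165 in maintenance against control16, 5407 in regain against gain4, 12 in control8 against initial and 4241 in the difference of maintenance and loss effects, with 0 of the 9 genes in gain8 and 2, Csf1 and Csf1r, both lower, in maintenance against control16. In the low-Lars2 libraries they were 2 in gain4, 1 in loss, 756 in regain against control16 (main 3864), 0 in regain against gain4, 2105 in regain against maintenance, 0 in maintenance against loss and 0 in the difference of maintenance and loss effects, with 0 of the 9 genes in gain4, loss, regain against gain4, maintenance against loss and that difference. Without maintenance library 3, loss library 1 and control12 library 3 the names were 2583 in gain4, 1490 in loss, 2939 in regain against gain4, 1955 in maintenance against loss, 1076 in control8 against initial, 8 in the difference of loss and gain8 effects and 547 in the difference of maintenance and loss effects, and the 9 genes called were 7, 9 and 1 in gain4, regain against gain4 and the last of these.

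Leaving out 1 library at a time, the names called ran from 2137 to 3345 in gain8, 2 to 1573 in gain4, 1196 to 4461 in loss, 0 to 2251 in maintenance against control16, 2291 to 3209 in regain against control16, 0 to 2386 in regain against gain4, 2945 to 4993 in regain against maintenance, 1647 to 5235 in maintenance against loss, 0 to 71 in control8 against initial, 0 to 11 in the difference of loss and gain8 effects and 498 to 2581 in that of maintenance and loss effects. The 9 genes called ran from 0 to 4 in gain4, 0 to 8 in regain against gain4, 0 to 1 in the difference of loss and gain8 effects and 4 to 9 in that of maintenance and loss effects.

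Reversed log2 fold changes belonged to genes not called in the fit of all libraries. Those of maintenance in the high-Lars2 libraries rest on maintenance library 3 alone. In maintenance against control16 they were -0.11 for Emr1 and -0.0055 for Msr1 with Lars2 as a term; -0.90 for Emr1, -1.05 for Cd68, -0.68 for Slc37a2, -0.99 for Cd84, -1.10 for Msr1 and -0.34 for Clec7a in the high-Lars2 libraries; 0.47 for Mpeg1 and 0.073 for Csf1r in the low-Lars2 libraries; 0.42 for Mpeg1 without 3 libraries; and, on FPKM with a pseudocount of 1 and 0.1, -0.16 and -0.18 for Emr1, -0.10 and -0.18 for Msr1 and -0.40 and -0.45 for Clec7a. In control8 against initial they were -0.062 and -0.080 for Csf1r with Lars2 as a term and in the high-Lars2 libraries, and on FPKM 0.071 and 0.074 for Cd68, 0.019 and 0.034 for Cd84 and 0.15 and 0.17 for Clec7a. Csf1r in gain4 was -0.31 in the high-Lars2 libraries. In the difference of loss and gain8 effects they were -0.099 for Emr1, -0.13 for Cd68, -0.70 for Msr1, -0.33 for Clec7a and -0.42 for Csf1r in the low-Lars2 libraries, and -0.23 for Msr1 and -0.35 for Csf1r without 3 libraries. Relative to Cd68 in place of Emr1, chosen after seeing the data, the shift was -0.39 for Mpeg1 and -0.33 for Clec7a. With 1 library left out, the ranges with a reversal were, in control8 against initial, -0.28 to 0.36 for Cd68, -0.53 to 0.0030 for Mpeg1, -0.54 to 0.27 for Slc37a2, -0.25 to 0.29 for Cd84 and -0.012 to 0.30 for Csf1r. In the difference of loss and gain8 effects they were -0.038 to 0.55 for Emr1, -0.065 to 0.66 for Cd68, -0.46 to 0.13 for Slc37a2, -0.29 to 1.31 for Msr1 and -0.30 to 0.18 for Csf1r. They were -0.070 to 0.16 for Csf1 in regain, -0.16 to 0.38 for Csf1r in gain4 and, in maintenance, -0.31 to 0.40 for Emr1, -0.38 to 0.46 for Mpeg1, -0.44 to 0.49 for Msr1 and -0.060 to 0.53 for Clec7a.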

Other observations

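The deposited FPKM of Clec7a cannot be compared between libraries. The name stands under 2 gene IDs of 2287 and 735 bases of exons. Dividing each library's count by its FPKM returned a length of 2287 bases in 14 libraries and of 735 bases in the other 13, with both kinds within every group of 3. The gain8 FPKM were therefore 23.5, 134.7 and 26.6 in libraries 1, 2 and 3, where the CPM were 53.6, 94.2 and 60.7. At the longer length in every library, the counts give 31.1 ± 10.6 FPKM in gain8 and 5.93 ± 0.522 FPKM in control8 (SD, n = 3 each). Of 61 repeated names with at least 20 counts in every library, 29 showed a length that differed between libraries by over 1%. Counts are not touched by this, and the limma alternatives on FPKM, which lost every Clec7a call but the one in regain against maintenance, rest on the deposited values.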
